A study of Rattus norvegicus with 8 samples.

Results

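The genes described here are the cilium and microtubule genes among those that differed between livers of rats on a choline-deficient diet and livers of rats on its choline-sufficient counterpart. They were chosen by name, with earlier results of these data known. A gene was taken where its description in the authors' deposited table held a word or phrase of the rule. These were words for cilia, flagella, dynein, intraflagellar transport, tubulin, Bardet-Biedl syndrome, nephronophthisis or the centrosome, and the phrase coiled-coil domain containing. Kif3a, Armc4 and Espn, each higher on the choline-deficient diet, were added by symbol. The rule found 28 of the 2462 genes of the authors' deposited table. By known role 9 of the 28 belong to the cilium, 7 are tubulins or act on microtubules, 8 are centriole or centrosome genes, and 4 (the coiled-coil genes Ccdc88c, Ccdc126 and Plekhd1 and the actin-bundling gene Espn) are not described by the name of the set. No gene of the table carried the words for Bardet-Biedl syndrome or nephronophthisis.

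Liver RNA was sequenced from 8 wild type rats of the inbred strain Fischer 344, each 1 year old. The choline-deficient amino acid-defined diet (CDAA), under which hepatocellular carcinoma had arisen per the study's design text, was given to 4 rats, and the matching diet with choline (CSAA, its choline-sufficient form) to 4. The labels do not say which sex the rats were, or whether nodules were taken apart from the surrounding liver. The values are the authors' own comparison of the diet groups: pooled FPKM (a level corrected for gene length and sequencing depth) for each group, and log2 fold changes of CDAA over CSAA with the standard error (SE) of the authors' DESeq2 fit, so values of single rats were not analysed here.

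The primary cilium is a single antenna built on a centriole that has docked at the cell surface, and its core is a ring of microtubules made of alpha- and beta-tubulin. Intraflagellar transport (IFT) trains, pulled outwards by kinesin-2 and back by dynein-2, build and maintain it, and Hedgehog signals pass through it. In liver the bile duct cells carry primary cilia and hepatocytes largely lack them. Motile cilia, which adult liver is not known for, add dynein arms and their docking proteins to the same core. The centrioles of dividing cells organise the spindle, so centriole genes serve both the cilium and the cell cycle.

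Of the 28 genes, 22 (78.6%) were higher and 6 lower in CDAA livers, against 57.1% higher and 42.9% lower among all genes of the authors' deposited table. The 22 include Kif3a, Armc4 and Espn, which were added by symbol with earlier results known, so their direction carries no weight in this comparison. They are also part of the counts and the median below. All 28 had passed the authors' tests, as had every gene of the table, so the count describes direction among changed genes and not how often cilium genes changed. In the authors' deposited table, 23 of the 28 (82.1%) differed at least 2-fold, against 75.1% of all its genes. The genes that rose at least 2-fold numbered 19, against 50.2% of all genes, and those that fell as far numbered 4, against 24.9%. The median log2 fold change was 1.48 over the 28 genes and 1.01 over the whole table. The highest DESeq2 adjusted p among the 28 in the authors' deposited table was 0.00571, that of Cep112. In order of fold change, 22 of the 27 neighbouring pairs lay closer together than their combined SE, so the rank of most single genes is not resolved. The fold changes of the authors' programs differed by over 1.5 times for 4 of the 28 (Armc4, Espn, Plekhd1 and Tubb2b), against 4.26% of the table. For 27 of the 28 the edgeR fold change was larger in size than that of DESeq2.

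**Figure D1:**
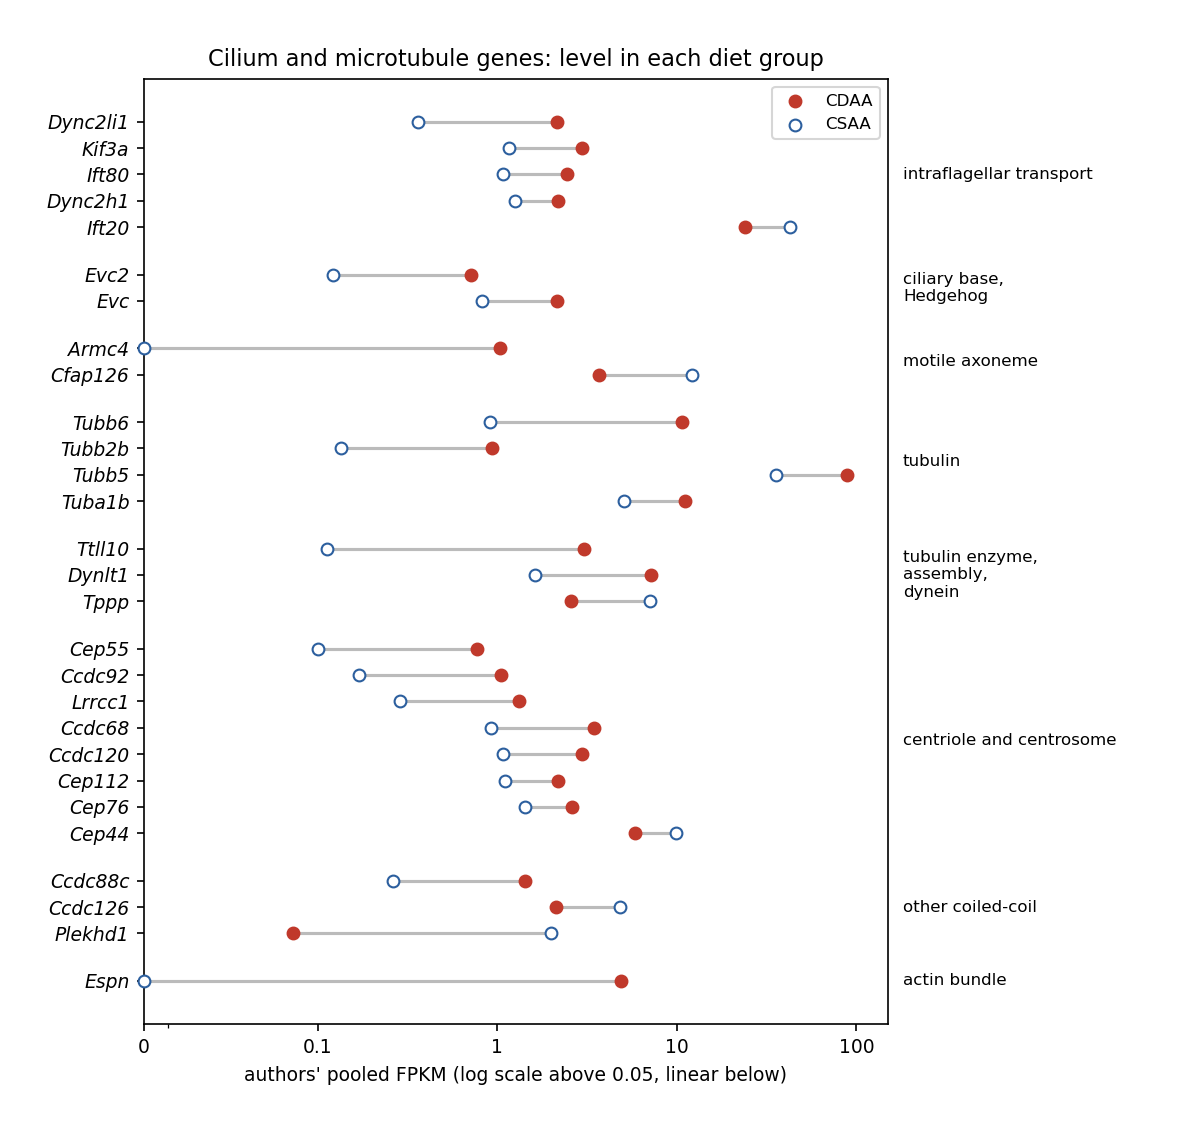
Pooled FPKM of the 28 genes in CDAA livers (filled red) and CSAA livers (open blue), grouped by role, on an axis that is logarithmic above 0.05 and linear below. Most of the genes lie between 0.1 and 10 FPKM, the 6 that were lower in CDAA have the red point on the left, and Armc4 and Espn are listed at 0 in CSAA.

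Most genes that rose had low levels in CSAA livers, as did risers of the whole table, with Tubb5 and Tuba1b above the others. The median of the 22 risers in the authors' deposited table was 2.31 FPKM in CDAA and 0.868 FPKM in CSAA, and 13 of the 22 were under 1 FPKM in CSAA. Risers of the whole table had medians of 3.91 FPKM in CDAA and 1.02 FPKM in CSAA. The 6 genes that fell had medians of 3.14 FPKM in CDAA and 8.46 FPKM in CSAA, far under the medians of all fallers in the authors' deposited table, 18.0 FPKM in CDAA and 42.4 FPKM in CSAA. Counts behind these values were low for part of the set: the mean normalised count over the 8 rats ran from 12.8 for Tubb2b to 1543 for Tubb5, and 10 genes were under 50. With those 10 left out, 12 genes were higher and 6 lower (66.7% higher), against 50.1% of all table genes with as many counts.

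**Figure D2:**
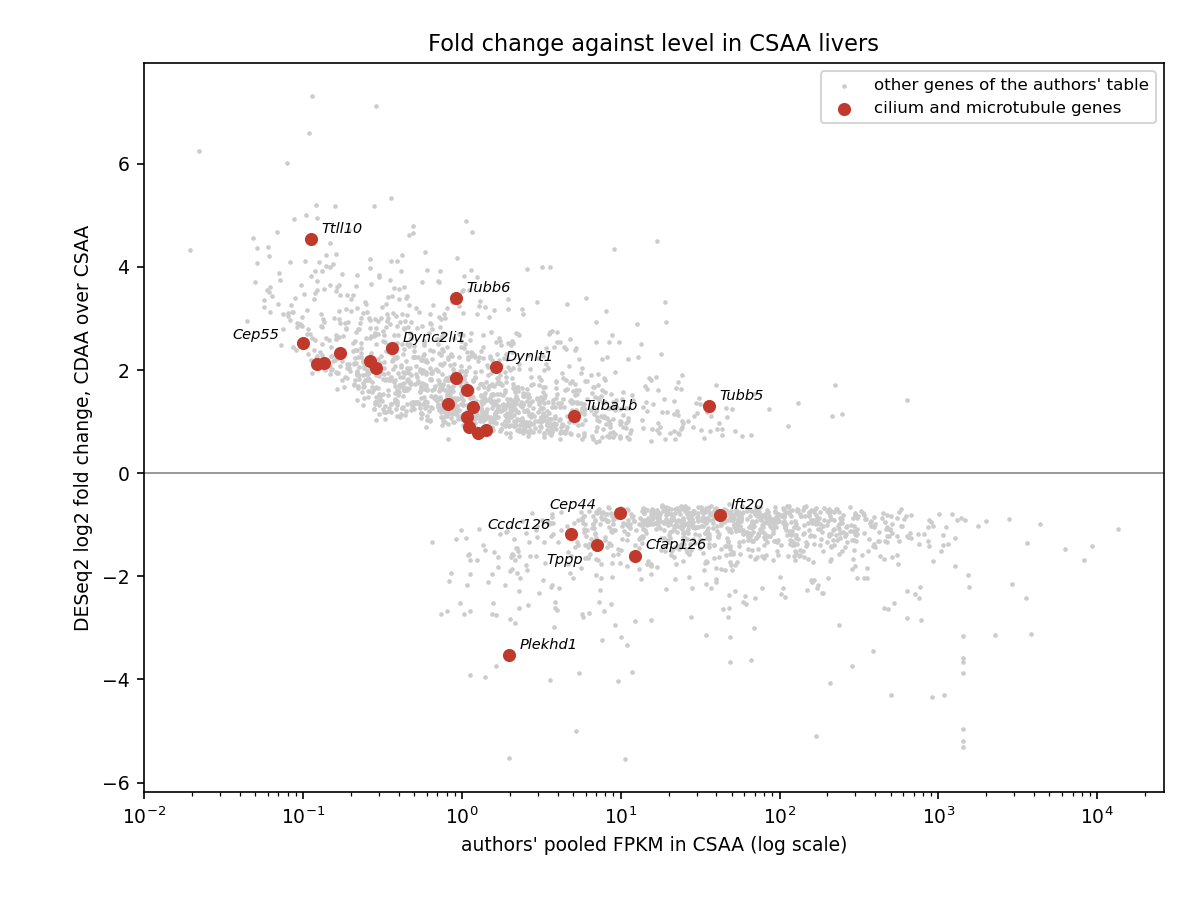
DESeq2 log2 fold change of CDAA over CSAA (vertical axis) against the pooled FPKM in CSAA livers (horizontal axis, log scale) for the genes of the authors' table above 0 FPKM in CSAA, with the cilium and microtubule genes in red and some of them named. The empty band around 0 is the range that no gene of the table entered, and Ttll10 and Tubb6 stand highest among the red points.

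The promoters of 5 genes are printed first, because many IFT genes are known targets of the RFX transcription factors, which bind a palindrome named the X-box, and because Evc and Evc2 share 1 intergenic stretch. Each window runs from 250 bases before to 50 bases after the annotated start in the RefSeq annotation of GRCr8, 5′ to 3′ on the strand of the gene, and capitals mark an RFX half-site (GTTGCCA or its reverse complement TGGCAAC) or a match to the mammalian X-box consensus. Kif3a lies at chr10:38226520-38226819 on the plus strand, Dync2li1 at chr6:15778117-15778416 on the minus strand, Cep112 at chr10:93865449-93865748 on the plus strand, Evc2 at chr14:77679213-77679512 on the minus strand and Evc at chr14:77680716-77681015 on the plus strand.
Kif3a: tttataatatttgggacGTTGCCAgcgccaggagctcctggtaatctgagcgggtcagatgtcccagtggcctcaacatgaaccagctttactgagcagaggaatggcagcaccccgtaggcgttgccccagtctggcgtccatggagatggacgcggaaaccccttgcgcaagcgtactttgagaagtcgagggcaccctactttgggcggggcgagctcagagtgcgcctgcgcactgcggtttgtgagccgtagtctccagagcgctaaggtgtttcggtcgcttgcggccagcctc
Dync2li1: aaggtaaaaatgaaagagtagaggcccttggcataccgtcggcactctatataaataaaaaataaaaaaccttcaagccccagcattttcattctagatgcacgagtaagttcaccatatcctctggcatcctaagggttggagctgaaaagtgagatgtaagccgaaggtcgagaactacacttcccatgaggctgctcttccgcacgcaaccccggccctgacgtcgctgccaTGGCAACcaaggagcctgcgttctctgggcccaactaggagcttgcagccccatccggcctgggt
Cep112: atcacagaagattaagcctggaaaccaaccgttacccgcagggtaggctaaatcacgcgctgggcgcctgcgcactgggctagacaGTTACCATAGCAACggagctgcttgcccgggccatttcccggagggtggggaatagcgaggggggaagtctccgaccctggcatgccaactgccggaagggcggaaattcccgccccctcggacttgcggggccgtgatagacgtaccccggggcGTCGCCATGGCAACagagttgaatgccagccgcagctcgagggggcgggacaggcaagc
Evc2: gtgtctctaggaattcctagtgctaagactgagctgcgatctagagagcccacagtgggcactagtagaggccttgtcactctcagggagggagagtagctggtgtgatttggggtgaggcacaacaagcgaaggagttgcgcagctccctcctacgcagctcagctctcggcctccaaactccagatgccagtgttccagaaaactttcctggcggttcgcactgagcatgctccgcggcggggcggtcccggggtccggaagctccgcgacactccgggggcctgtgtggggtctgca
Evc: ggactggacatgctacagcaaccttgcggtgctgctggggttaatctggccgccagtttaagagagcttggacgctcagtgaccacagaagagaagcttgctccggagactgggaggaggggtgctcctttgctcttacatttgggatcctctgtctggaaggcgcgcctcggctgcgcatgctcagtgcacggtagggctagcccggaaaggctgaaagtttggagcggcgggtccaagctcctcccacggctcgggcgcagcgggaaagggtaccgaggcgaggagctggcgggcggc

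The half-site was found in 3 of the 23 genes with a promoter in that annotation (13.0%), against 4.86% of all 27457 genes with one. In Dync2li1 it began 15 bases before the start, in Cep112 2 bases before it and in Kif3a 233 bases before it. A strict X-box, searched on both strands as GTTNCC, a gap of 1 to 3 bases and GGNAAC, was in none of the 23 and in 0.885% of all genes, and GTAAACA, the core bound by FOXJ1 and other forkhead factors, was in none of the 23 and in 4.13% of all genes. The search for the mammalian X-box consensus was added after the sequences were seen and can overlap the half-site. It matched 2 of the 23, Cep112 at 2 places and Ccdc88c, against 1.64% of all genes. Ccdc88c had 3 windows, and the match lay in the last only, 238 bases before that start. Among table genes with a promoter, the half-site was in 4.09%, the strict X-box in 0.377%, GTAAACA in 3.07% and the consensus in 0.592%. Median GC content was 62.7% in the windows of these genes, 60.0% in those of all table genes and 51.7% over all promoters. Armc4, Lrrcc1, Ccdc68, Ift80 and Dync2h1 were not among the promoters used.

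The 5 IFT genes of the set, motors and train subunits, rose with 1 exception. Dync2li1, the light intermediate chain of dynein-2 (ENSRNOG00000005151; chromosome 6, 7900971 to 7933796 in build rn6), was at 2.14 FPKM in CDAA and 0.362 FPKM in CSAA in the authors' deposited table. Its log2 fold change there was 2.42 ± 0.43 (SE; DESeq2 adjusted p = 1.98e-07), on a mean normalised count of 26.6. The heavy chain of the same motor, Dync2h1 (ENSRNOG00000032070; chromosome 8, 5217216 to 5429581), was at 2.18 FPKM in CDAA and 1.26 FPKM in CSAA, with a log2 fold change of 0.77 ± 0.17 (DESeq2 adjusted p = 5.27e-05) in the authors' deposited table. Heavy chain and light intermediate chain stood at an FPKM ratio of 1.01 in CDAA and 3.48 in CSAA; the difference between their fold changes was not tested.

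Kif3a, a motor subunit of kinesin-2 (ENSRNOG00000007515; chromosome 10, 38918747 to 38952785), was at 2.97 FPKM in CDAA and 1.17 FPKM in CSAA, a log2 fold change of 1.28 ± 0.26 (DESeq2 adjusted p = 9.43e-06) in the authors' deposited table. Ift80, a subunit of the IFT-B complex (chromosome 2, 165505809 to 165600748), was at 2.44 FPKM in CDAA and 1.08 FPKM in CSAA, or 1.10 ± 0.27, in the authors' deposited table. The locus of Smc4, a condensin gene of dividing cells, lies 257 bases from that of Ift80 and its log2 fold change in the authors' deposited table was nearly the same, 1.11 ± 0.20. The exception was Ift20, the IFT-B subunit that also sits at the Golgi (chromosome 10, 65805859 to 65811351), at 24.1 FPKM in CDAA and 42.4 FPKM in CSAA in the authors' deposited table. It fell by 0.82 ± 0.16 on the log2 scale (DESeq2 adjusted p = 1.67e-06) and was the most abundant IFT gene of the set in both groups.

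Further IFT genes found in the authors' deposited table, from lists of pathway members, went the way of the motors. In the list of IFT-A subunits and IFT motors 5 of 16 genes were found in the authors' deposited table, each higher, adding the IFT-A subunits Wdr35 (1.10 ± 0.20) and Wdr19 (0.98 ± 0.24). Of 16 IFT-B genes 3 were there, 2 higher and 1 lower, adding Ttc26 (1.20 ± 0.24 in the authors' deposited table). None of the 13 genes of the BBSome and its assembly, the cargo adaptor of IFT, and none of the 27 genes of the transition zone and inversin compartment, the gate at the ciliary base, was in the authors' deposited table. Genes missing from the table may have failed a test of the authors, or never entered it, or been removed by size, since the smallest log2 fold change of the table by DESeq2 was 0.60 in absolute size. Whether they changed is unknown here.

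Evc and Evc2 encode partners at the base of the cilium that pass on the Hedgehog signal, and both rose. Evc2 (ENSRNOG00000007025; chromosome 14, 78129748 to 78211931) was at 0.715 FPKM in CDAA and 0.122 FPKM in CSAA, a log2 fold change of 2.12 ± 0.45 (DESeq2 adjusted p = 1.81e-05) in the authors' deposited table. Evc (ENSRNOG00000007564; chromosome 14, 78213634 to 78253266) was at 2.14 FPKM in CDAA and 0.823 FPKM in CSAA, or 1.34 ± 0.32 (DESeq2 adjusted p = 0.000151), in the authors' deposited table. The genes lie next to each other, with 1702 bases between their rn6 loci, and their annotated starts in GRCr8 are 1704 bases apart and point away from each other.

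In the list for the ciliary membrane and Hedgehog signalling, 5 of 25 genes were in the authors' deposited table, 4 higher and 1 lower. Beside Evc and Evc2 these were Smo, the Hedgehog signal transducer (1.63 ± 0.49), Pkd2, the polycystin channel of primary cilia (1.55 ± 0.26), and Hhip, which binds and restrains Hedgehog ligands (-1.57 ± 0.32), in the authors' deposited table. Hhip was at 2.01 FPKM in CDAA and 6.36 FPKM in CSAA in the authors' deposited table. Gli1 and Ptch1, which are in the same list, were not in the authors' deposited table, so whether they changed is unknown here.

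Genes of the motile axoneme moved in both directions and were few. Armc4, a docking protein of outer dynein arms (ENSRNOG00000018905; chromosome 17, 60287202 to 60474031), was at 1.04 FPKM in CDAA and listed at 0 in CSAA in the authors' deposited table. DESeq2 gave a log2 fold change of 5.18 ± 0.64 (adjusted p = 3.19e-14) and edgeR 8.81 in the authors' deposited table. With a level of 0 in CSAA the size of the rise is uncertain, and why the programs differ was not tested. Cfap126, which in mice helps to place basal bodies (ENSRNOG00000034221; chromosome 13, 89480057 to 89495949), was at 3.69 FPKM in CDAA and 12.2 FPKM in CSAA in the authors' deposited table. It fell by 1.60 ± 0.33 on the log2 scale (DESeq2 adjusted p = 1.52e-05).

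Of 16 dynein docking and assembly factors 3 were in the authors' deposited table, 1 higher and 2 lower. The fallers were Ttc25, a partner of Armc4 in docking, at 2.93 FPKM in CDAA and 11.0 FPKM in CSAA (-1.81 ± 0.25), and Zmynd10, a dynein assembly factor, at 1.40 and 2.98 FPKM in CDAA and CSAA (-1.03 ± 0.25), in the authors' deposited table. None of 20 axonemal dynein subunits was in the authors' deposited table, and Cfap126 was the only 1 there of 55 regulatory complex, radial spoke, central pair and axoneme lumen genes. None of 10 markers of multiciliated cells, Foxj1 included, was in the authors' deposited table. In the list named ciliogenesis transcription factors 3 of 15 were there and all rose: Glis3 (3.72 ± 0.44, and 4.39 by Cufflinks), Glis2 (2.27 ± 0.34) and Rfx5 (0.89 ± 0.21). Foxj1, Mcidas, Gmnc and the other Rfx genes of that list were not there. Rfx5 is known as a regulator of MHC class II genes and not of cilia, so the list name does not describe it. Whether Glis2 and Glis3 act on cilium formation in liver was not tested, so these rises do not show that ciliogenesis factors rose.

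**Figure D3:**
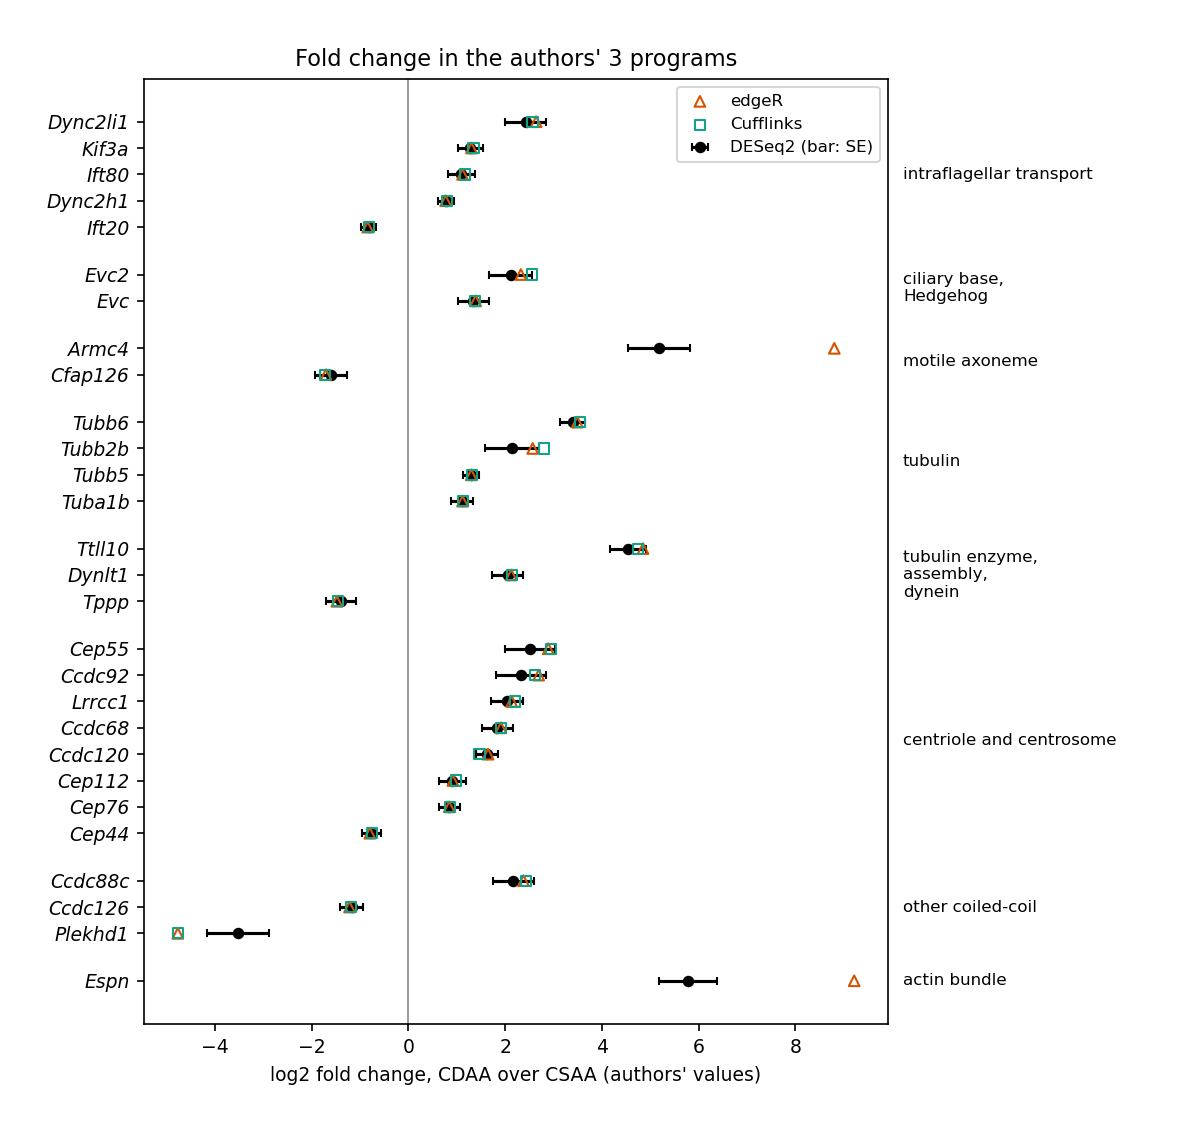
Log2 fold change of CDAA over CSAA for the 28 genes by DESeq2 (black, bar = SE), edgeR (triangles) and Cufflinks (squares), grouped by role. The programs lie together for most genes and apart for Armc4, Espn and Plekhd1; Cufflinks gives no ratio for Armc4 and Espn, which are at 0 in CSAA.

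All 4 tubulin genes found rose, Tubb6 and Tubb2b by more than Tubb5 and Tuba1b, though the differences between them were not tested. Tubb5, the general class I beta-tubulin (ENSRNOG00000061216; chromosome 20, 3422460 to 3426371), was at 88.8 FPKM in CDAA and 35.8 FPKM in CSAA in the authors' deposited table, the highest level of the 28 genes in CDAA and the next after Ift20 in CSAA. The log2 fold change of Tubb5 in that table of the authors was 1.30 ± 0.17 (DESeq2 adjusted p = 8.82e-13). Tubb6, the class V beta-tubulin (ENSRNOG00000018371; chromosome 18, 63130541 to 63140181), was at 10.7 FPKM in CDAA and 0.914 FPKM in CSAA, a log2 fold change of 3.40 ± 0.27 (DESeq2 adjusted p = 6.82e-35) in the authors' deposited table. The FPKM ratio of Tubb5 to Tubb6 was 8.32 in CDAA and 39.1 in CSAA. Of the summed FPKM of these 4 genes, Tubb6 made up 9.57% in CDAA and 2.18% in CSAA.

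Tuba1b, an alpha-tubulin (chromosome 7, 140614751 to 140617721), was at 11.2 FPKM in CDAA and 5.08 FPKM in CSAA (1.11 ± 0.23 on the log2 scale) in the authors' deposited table. Tubb2b, a class II beta-tubulin (chromosome 17, 31441629 to 31482759), was at 0.937 FPKM in CDAA and 0.135 FPKM in CSAA, with 2.14 ± 0.56 by DESeq2 and 2.80 by Cufflinks in the authors' deposited table. Its locus spans 41131 bases, and RefSeq places the close copies Tubb2al1 and Tubb2a beside it, so its value may hold reads of those genes. RefSeq also gives Tubb2b as a synonym of Tubb2a, so which of these genes the row named Tubb2b measures is uncertain. Tuba1b likewise has near-identical copies, Tuba1a and Tuba1c, and no source used here says how reads were split between copies. The other 16 of 20 tubulins in the list were not in the authors' deposited table.

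Among the 28 genes, Ttll10 had the largest rise of those with a level above 0 in both groups. It belongs to the tubulin tyrosine ligase-like enzymes and in mice extends glycine chains on tubulin (ENSRNOG00000020132; chromosome 5, 173471009 to 173484986). It was at 3.02 FPKM in CDAA and 0.113 FPKM in CSAA in the authors' deposited table. The log2 fold change was 4.54 ± 0.37 by DESeq2 (adjusted p = 3.28e-32), 4.85 by edgeR and 4.74 by Cufflinks in the authors' deposited table, the 27th largest rise of 1407. Tppp, which promotes tubulin polymerisation (chromosome 1, 31870898 to 31890778), was at 2.58 FPKM in CDAA and 7.05 FPKM in CSAA and fell by 1.40 ± 0.31 on the log2 scale in the authors' deposited table. Among the 35 folding and modifying enzymes of tubulin, 3 were in the authors' deposited table, 2 higher and 1 lower, the other riser being Agtpbp1, an enzyme that trims glutamate chains from tubulin (1.96 ± 0.26).

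Dynlt1, a light chain of cytoplasmic dynein (ENSRNOG00000018207; chromosome 1, 47206894 to 47213749), was at 7.19 FPKM in CDAA and 1.63 FPKM in CSAA, a log2 fold change of 2.05 ± 0.31 (DESeq2 adjusted p = 1.05e-09) in the authors' deposited table. It was the only 1 of the 30 cytoplasmic dynein and dynactin genes there, and RefSeq lists processed copies named Dynlt1-ps1 and Dynlt1-ps2, between which and Dynlt1 reads could be split. In the authors' deposited table, 8 of 45 microtubule-associated, severing and plus-end genes were found, 6 higher and 2 lower. The risers were led by Dclk1, a doublecortin-like kinase, at 6.48 FPKM in CDAA and 0.195 FPKM in CSAA (4.71 ± 0.37), and by the doublecortin domain gene Dcdc2 (5.21 ± 0.36), in the authors' deposited table. The fallers were Eml5 (-1.03 ± 0.24) and the severing protein gene Fign (-0.97 ± 0.29) in the authors' deposited table. Of 22 transport and ciliary kinesins, Kif12 rose, with 15.4 FPKM in CDAA and 0.491 FPKM in CSAA (4.66 ± 0.28), and the axonal transport motor Kif1b fell (-0.71 ± 0.12), in the authors' deposited table.

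Of the 8 centriole and centrosome genes 7 rose. Cep55, which acts in the last cut between dividing cells (chromosome 1, 256745287 to 256760796), was at 0.772 FPKM in CDAA and 0.100 FPKM in CSAA, or 2.52 ± 0.51 on the log2 scale, in the authors' deposited table. Its mean normalised count was only 16.2. Lrrcc1, a protein of the centriole interior in human cells (chromosome 2, 88384795 to 88414012), was at 1.32 FPKM in CDAA and 0.287 FPKM in CSAA (2.04 ± 0.34) in the authors' deposited table. Ccdc92, located at centrioles in human cells (chromosome 12, 37211315 to 37237848), was at 1.05 FPKM in CDAA and 0.171 FPKM in CSAA (2.32 ± 0.52) in the authors' deposited table. Each of these 3 was under 0.3 FPKM in CSAA.

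Ccdc68 and Ccdc120, both found on the subdistal appendages of the mother centriole in human cells, rose by similar amounts. Ccdc68 (chromosome 18, 68408889 to 68472320) was at 3.46 FPKM in CDAA and 0.920 FPKM in CSAA, or 1.84 ± 0.31, in the authors' deposited table. Ccdc120 (chromosome X, 15598651 to 15617665) was at 2.98 FPKM in CDAA and 1.08 FPKM in CSAA, or 1.62 ± 0.23, in the authors' deposited table. Within the centriole group the smallest rises were those of Cep112 (0.90 ± 0.28) and of Cep76, which limits centriole copying in human cells (0.84 ± 0.22), in the authors' deposited table. Cep44, a centriole protein in human cells (chromosome 16, 37177442 to 37196784), fell by 0.77 ± 0.20 on the log2 scale, with 5.84 FPKM in CDAA and 9.88 FPKM in CSAA in the authors' deposited table.

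The list of 70 centriole and centrosome genes had 8 in the authors' deposited table, 7 higher and 1 lower. Those outside the 28 were Ninl, which anchors microtubules (2.26 ± 0.38), Plk4, the kinase that starts centriole copying (2.11 ± 0.38), Haus4, a spindle augmin subunit (1.81 ± 0.37), and the mitotic kinase Aurka (0.98 ± 0.26).

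The remaining coiled-coil genes were found through a phrase that names a protein shape and not a function. Ccdc88c, a Dishevelled-binding protein of Wnt signalling (chromosome 6, 124905807 to 125027553), was at 1.42 FPKM in CDAA and 0.263 FPKM in CSAA (2.17 ± 0.43) in the authors' deposited table. Ccdc126 (chromosome 4, 78981986 to 79003053) was at 2.11 FPKM in CDAA and 4.83 FPKM in CSAA (-1.17 ± 0.24) in the authors' deposited table. Plekhd1 (ENSRNOG00000038297; chromosome 6, 104340205 to 104371335) was at 0.0730 FPKM in CDAA and 1.99 FPKM in CSAA, the steepest fall of the set. Its log2 fold change was -3.52 ± 0.64 by DESeq2, -4.77 by edgeR and -4.77 by Cufflinks in the authors' deposited table.

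Espn encodes espin, which bundles the actin of microvilli and of the hair-cell projections called stereocilia, and so is no part of a microtubule cilium. Espn (ENSRNOG00000010270; chromosome 5, 169293903 to 169331163) was at 4.87 FPKM in CDAA and listed at 0 in CSAA in the authors' deposited table. DESeq2 put it at 5.79 ± 0.61 (adjusted p = 1.13e-19), the 7th largest rise of the table, and edgeR at 9.22, in the authors' deposited table. As for Armc4, the size of the rise is uncertain, and why the programs differ was not tested. Espn and Armc4 were 2 of 17 genes (0.690% of the table) listed at 0 in CSAA. Its neighbour Tnfrsf25, whose locus lies 765 bases away, fell by 1.28 ± 0.33 on the log2 scale in the authors' deposited table. In the list of 23 stereocilium, microvillus and actin bundle genes 3 were found in the authors' deposited table, each higher, adding Ezr, which ties actin to the membrane of microvilli (2.40 ± 0.32), and the microvillar cadherin Cdhr2 (2.23 ± 0.50).

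Over the 16 pathway lists, 49 of 448 distinct genes were in the authors' deposited table, 39 higher and 10 lower, where 57.1% of the whole table was higher and 42.9% lower. No source used here says how many genes the authors tested, so the share of the lists that entered the table has no background to be read against. Leaving out the cilium and microtubule genes already chosen by the rule, 28 were there, 22 higher and 6 lower, beside the same 57.1% and 42.9% of the table. The lists were also chosen with earlier results of these data known, so this split is no independent repeat of the first.

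**Figure D4:**
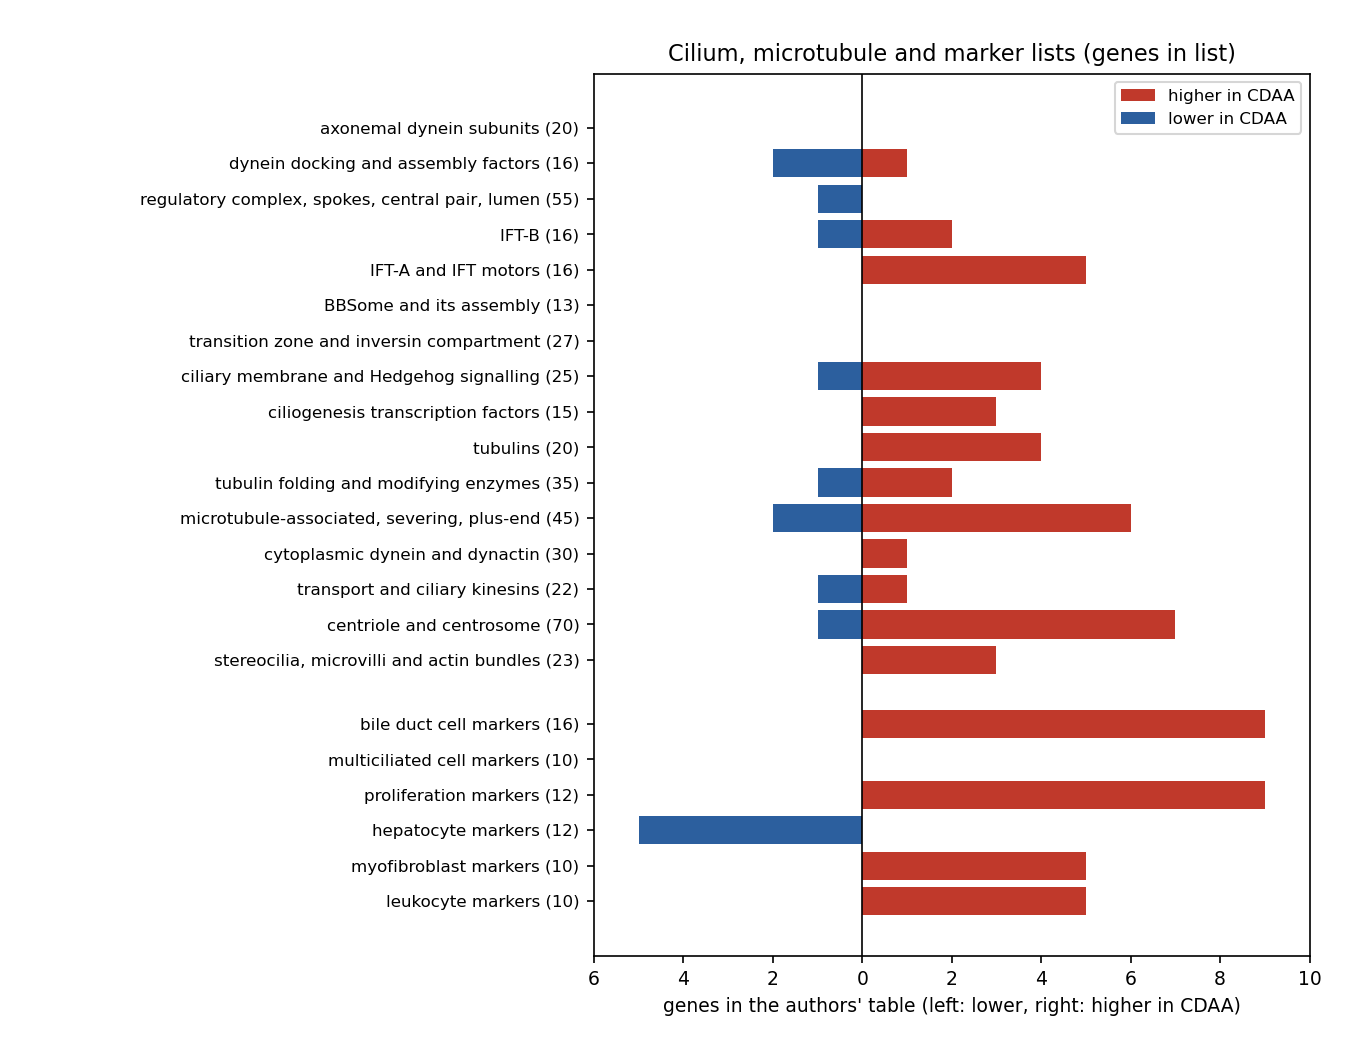
Number of genes of each list in the authors' deposited table, lower in CDAA drawn to the left and higher to the right, with the size of the list in parentheses. Bars lie on the right only for IFT-A and motors, ciliogenesis factors, tubulins, cytoplasmic dynein, and stereocilia, microvilli and actin bundles. The same holds for bile duct, proliferation, myofibroblast and leukocyte markers. Hepatocyte markers and the list of regulatory complex, spoke, central pair and lumen genes have bars on the left only. Axonemal dyneins, the BBSome, the transition zone and multiciliated cell markers have none.

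Markers of bile duct cells, proliferation, myofibroblasts and leukocytes were higher in CDAA where found, and those of hepatocytes lower. Of 16 bile duct cell markers 9 were found in the authors' deposited table, each of them higher, among them Cftr (5.003 ± 0.39), Prom1 (4.23 ± 0.40), Sctr (3.98 ± 0.39) and Spp1 (3.72 ± 0.37). Their summed level was 89.6 FPKM in CDAA and 14.7 FPKM in CSAA, and none was listed at 0. Of 12 proliferation markers 9 were there and all 9 rose, with a summed level of 27.6 FPKM in CDAA and 5.79 FPKM in CSAA in the authors' deposited table, led by Mki67 (2.94 ± 0.29). Myofibroblast markers, 5 of 10, summed to 33.2 FPKM in CDAA and 9.23 FPKM in CSAA, and leukocyte markers, 5 of 10, to 100.3 FPKM in CDAA and 21.2 FPKM in CSAA, all higher, in the authors' deposited table. Hepatocyte markers, 5 of 12, were all lower and summed to 7313 FPKM in CDAA and 19336 FPKM in CSAA in the authors' deposited table. Of all genes of that table, 57.1% were higher and 42.9% lower. The sums cover only the listed genes that had passed the authors' tests, so they do not give the level of a whole marker list. The part of these markers in the changes of the cilium and microtubule genes was not tested. In bulk tissue more cells of a type and more RNA per cell cannot be told apart.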

How the data were processed

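Liver RNA of 4 CDAA and 4 CSAA rats was extracted with Trizol and made into Illumina TruSeq libraries, per the labels' protocols. FastQC, TopHat2, Cufflinks, DESeq2 and edgeR with build rn6 are named in the submitters' processing notes. No source used here gives their versions, the read counter, the annotation or whether strand was used, so overlapping genes may share reads.

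Per the file headers, the authors deposited for each gene a DESeq2 mean of normalised counts (a signal), a log2 fold change with SE, a Wald score and p-values. From edgeR the authors deposited log2 values (the fold change and the mean CPM) and p-values. The Cufflinks columns deposited by the authors hold a pooled level of each group per locus, taken as FPKM, and the log2 ratio, score, p-value and q-value of the pair. All genes had passed 0.01 in the 3 programs. Mean count over mean CPM puts a typical normalised library near 14100000 counted reads; depth per rat was not analysed here.

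Direction and size were taken from the fold change deposited by the authors from DESeq2; no test was run. The members and gene lists were chosen with earlier results of these data known. The rule for naming covered the cilium, flagellum, dynein, IFT and tubulin genes and those added by symbol. It also covered the 5 coiled-coil and centrosome genes with the largest change and the fallers among them. Of each list it covered up to 4 genes with the largest change plus up to 2 of the opposite direction, and not all of these list genes are named in the text. Ccdc68, Ccdc120, Cep112, Cep76 and Aurka are named beyond that rule, after their values were seen. The neighbours Smc4 and Tnfrsf25 are named beyond it too. Names were matched to RefSeq GRCr8, used otherwise for promoters alone. The searches for the half-site, the strict X-box and GTAAACA were tested on simulated data, and the search for the X-box consensus was not. The proposed comparison of tubulin proteins was not made. Python 3.11.15, pandas 2.3.3, numpy 2.4.6 and matplotlib 3.10.9 were used.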

Additional observations from a re-analysis of the deposited data

How the results depend on the processing

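The split of 22 higher and 6 lower was the same with the edgeR fold change and without members in a shared locus, of which there were none. Other settings gave 18 to 20 higher and 4 to 6 lower: the Cufflinks ratio (20 and 6, over the 26 genes with a finite ratio), a 2-fold minimum (19 and 4), 1 FPKM in the higher group (19 and 6), and leaving out the genes found only through the coiled-coil phrase (18 and 4) or only through the centrosome word (18 and 5). A minimum mean normalised count of 50, chosen after seeing the data, left 12 higher and 6 lower and a median log2 fold change of 0.999, against 1.48 over all 28; fewer genes remained, and those removed were all risers. Asking for agreement of direction in all 3 programs, also chosen afterwards, gave 20 and 6. No setting left out Kif3a, Armc4 and Espn as a group, the risers added by symbol. The median was 1.52 with edgeR, 1.36 with Cufflinks and 1.30 with at least 1 FPKM. In the pathway lists, a 2-fold minimum left 33 of 39 higher and 6 of 10 lower. For 73 genes, 144 of 144 edgeR and Cufflinks values had the direction of DESeq2 and passed 0.05. The 73 are the 28 genes and the list genes covered by the rule for naming, not all of which are named in the text. Passing 0.05 could not fail, since all genes of the table had passed 0.01 in the 3 programs. The sizes differed by over 1.5 times for 5 of the 73, against 4.26% of the table. These were Armc4, Espn, Plekhd1 and Tubb2b among the 28 and Glis3 outside them (3.72 by DESeq2, 4.10 by edgeR and 4.39 by Cufflinks). No paired analysis was possible because the deposited table holds pooled group values and no values of single rats, and for the same reason no rat could be left out.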
